A study of Mus musculus with 23 samples.

Results

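RNA-binding proteins that travel with, repress or release mRNAs in dendrites are described here through 9 of their own mRNAs, those of Fmr1, Fxr1, Fxr2, Stau1, Stau2, Pum2, Cpeb3, Pura and Pabpc1. The mRNAs were taken by gene symbol from the mRNA tables of hippocampal synaptosomes and of microfluidic chambers, and are 9 of 22018 mRNA identifiers and of 48709 identifiers in all. Synaptosomes are pinched-off nerve endings with attached postsynaptic membrane, and they were prepared here from pooled hippocampi of untreated C57B/6J mice at an age of 3 months. The chambers held hippocampal neurons of CD1 mouse embryos at embryonic day 17, grown for 14 days in vitro so that neurites and synapses fill a perfusion channel, which was cut out for RNA. Total RNA came from 3 synaptosome pools, from 3 KCl chamber libraries (50 mM KCl for 2 h, a depolarising stimulus) and from 8 unstimulated control chamber libraries. The mice and cultures carry no transgene or knockout in the labels. According to the methods, 2 samples were always pooled for total RNA sequencing of the chambers. Nothing in the labels says which libraries come from separate cultures. The p-values therefore measure only the spread between these libraries, which may be technical.

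Dendritic mRNA granules are assemblies of mRNA and protein that carry transcripts along microtubules in a repressed state and release them for translation near synapses. FMRP, the product of Fmr1, and its paralogs FXR1P and FXR2P bind translating or stalled mRNAs, the staufens bind double-stranded stems and link transcripts to transport, and Pumilio and CPEB proteins bind short elements in 3′ UTRs and control translation and the poly(A) tail. Pur-alpha, the product of Pura, is a component of kinesin-associated granules, and the poly(A)-binding protein PABPC1 coats the tail of cytoplasmic mRNAs.

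Pumilio proteins bind an 8-base element written TGTANATA in DNA letters, and the 3′ UTR of Pum2 itself holds 2 copies of it. The element was searched on the sense strand of the annotated 3′ UTR (GENCODE M21, GRCm38/mm10, the coding transcript with the longest coding sequence of each gene). It occurred in 4 of the 9 mRNAs, with 6 sites in all. In the first 1000 bases after the stop codon, which 6 of the 9 mRNAs have in full, 2 mRNAs (Pum2 and Pura) held a site, against 1626 of 8859 mRNAs with a 3′ UTR of that length (18.4%). The site of Pura is not reported here. The sites of Pum2, the mRNA on which the synaptosome comparison turns, and those of Fmr1 and Cpeb3 are given. Each is written 5′ to 3′ on the gene's own strand with the element in capitals and 10 bases on either side, and a match is a description of letters and not of binding.
Pum2, chr12:8750155-8750182 (+), 445 bases past the stop codon: tttatagagaTGTATATAgaattatagt
Pum2, chr12:8750408-8750435 (+), 698 bases past the stop codon: tgtacagaatTGTATATActtataattg
Fmr1, chrX:68717289-68717316 (+), 1624 bases past the stop codon: tttaaaatacTGTAGATAattaaccaag
Fmr1, chrX:68717350-68717377 (+), 1685 bases past the stop codon: caatattctcTGTACATAttagcgacaa
Cpeb3, chr19:37022118-37022145 (-), 2725 bases past the stop codon: ccttttgtttTGTAAATAaatgtgcccc

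Library composition differed widely between and within groups. Totals were 14714196 to 16667516 counts in synaptosomes, 2632490 to 80883504 in KCl chambers and 722529 to 48281227 in control chambers, and mRNAs took 11.0% to 12.1%, 68.3% to 75.0% and 70.0% to 97.3% of them in the same groups. Levels are therefore given as CPM over the mRNA counts alone, called the mRNA-scaled level, unless CPM of the whole table is named. All 8 neuronal markers had counts in every group, and so did astrocyte, oligodendrocyte and microglial markers. In KCl chambers 4 of 5 endothelial markers had counts and Cldn5 was at 0. Their sum was 12.8 to 96.5 CPM there, 2.98 to 266 CPM in control chambers and 0.816 to 1.38 CPM in synaptosomes. Of 5 blood genes 3 had counts in KCl chambers, and the haemoglobin genes Hbb-bs and Hba-a2 were at 0. The blood sum was at most 9.15 CPM there and 1.74 to 36.0 CPM in control chambers. A list of 6 nuclear RNAs, Malat1 among them, took 0.393% to 4.28% of counts in control chambers. It took 1.32% to 2.19% in KCl chambers and 0.00338% to 0.00428% in synaptosomes. Gene models on satellite repeats took 0.0182% to 8.84% in control chambers, 0.614% to 5.76% in KCl chambers and at most 2e-05% in synaptosomes. Among controls, 5 libraries have titles that start with a number and are called bare-number controls (C1, C2, C3, C9, C11), and 3 have titles that start with letters (Ctrl3, Ctrl4, sc3), as all KCl libraries do (KCL1, KCL1a, KCL4). Behind C1 and C11 stand titles with a suffix, 1-a or 1-b and 11-a or 11-b, and which of each pair it is was not given. Control sc3 stood apart, with 48281227 counts and 14156 CPM of astrocyte markers (663 to 1962 CPM in the other controls), while Ctrl3 and Ctrl4 had the largest shares of odorant, vomeronasal and taste receptor genes (1.01% and 1.21%) of any library.

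Synaptosomes ranked these mRNAs in another order than chambers did. Pum2 was the most abundant of the 9 in synaptosomes, both per kilobase of exon and per kilobase of coding sequence, whereas Pabpc1 held rank 1 in KCl and in control chambers. Per kilobase of exon, the mRNA-scaled level of Pum2 was 45.9 ± 3.67 in synaptosomes (SD, n = 3), 23.4 ± 5.66 in KCl chambers (n = 3) and 15.2 ± 8.55 in control chambers (n = 8). Pabpc1 followed Pum2 in synaptosomes with 19.1 ± 2.77, and had 61.8 ± 13.1 in KCl chambers and 36.8 ± 22.0 in control chambers. Below them in synaptosomes came Stau2 with 14.8 ± 2.49, Fxr2 with 10.1 ± 0.580, Pura with 9.12 ± 1.96 and Cpeb3 with 8.27 ± 1.70. Fxr1 with 6.56 ± 0.109, Stau1 with 4.94 ± 0.495 and Fmr1 with 4.21 ± 0.0515 closed the order. The ranges over the 3 pools overlapped between Pabpc1 and Stau2 and between neighbours from Fxr2 down to Fxr1, and did not overlap between Pum2 and Pabpc1, Stau2 and Fxr2, Fxr1 and Stau1, or Stau1 and Fmr1. In KCl chambers only Pabpc1 was separated from its neighbour, and in control chambers all neighbours overlapped. With coding length instead of exon length, Fxr2 dropped to rank 9 in synaptosomes and in KCl chambers, and Pum2 dropped to rank 7 in both kinds of chamber.

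The study's detection cutoffs of 50 CPM for synaptosomes and 100 CPM for chambers were applied here to group means, a choice that its methods leave unstated, and few of the 9 then counted as detected. In synaptosomes none reached 50 CPM, as against 233 of 15109 mRNAs with a count (1.54%), and Pum2 came nearest with 44.0, 34.8 and 35.9 CPM in pools 1, 2 and 3. In KCl chambers Fmr1, Pum2 and Pabpc1 reached a mean of 100 CPM (7.41% of mRNAs did), and Pabpc1 alone reached it in every KCl library (4.46% of mRNAs did). In control chambers Pabpc1 alone reached it (6.54% of mRNAs did), and no member did so in all 8 libraries (0.872% of mRNAs did). All 9 nevertheless had counts in all 14 libraries, the lowest being 14 counts of Pura in Ctrl4, for which the exact Poisson 95% interval is 7.65 to 23.5 counts and covers counting error only. On the mRNA-scaled level with the same cutoffs, 5 members would count in synaptosomes (Stau2, Pum2, Cpeb3, Pura, Pabpc1), 6 in KCl chambers and 3 in control chambers, where 19.4% of mRNAs with a count in synaptosomes, 10.8% in KCl chambers and 9.76% in control chambers would.

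**Figure D1:**
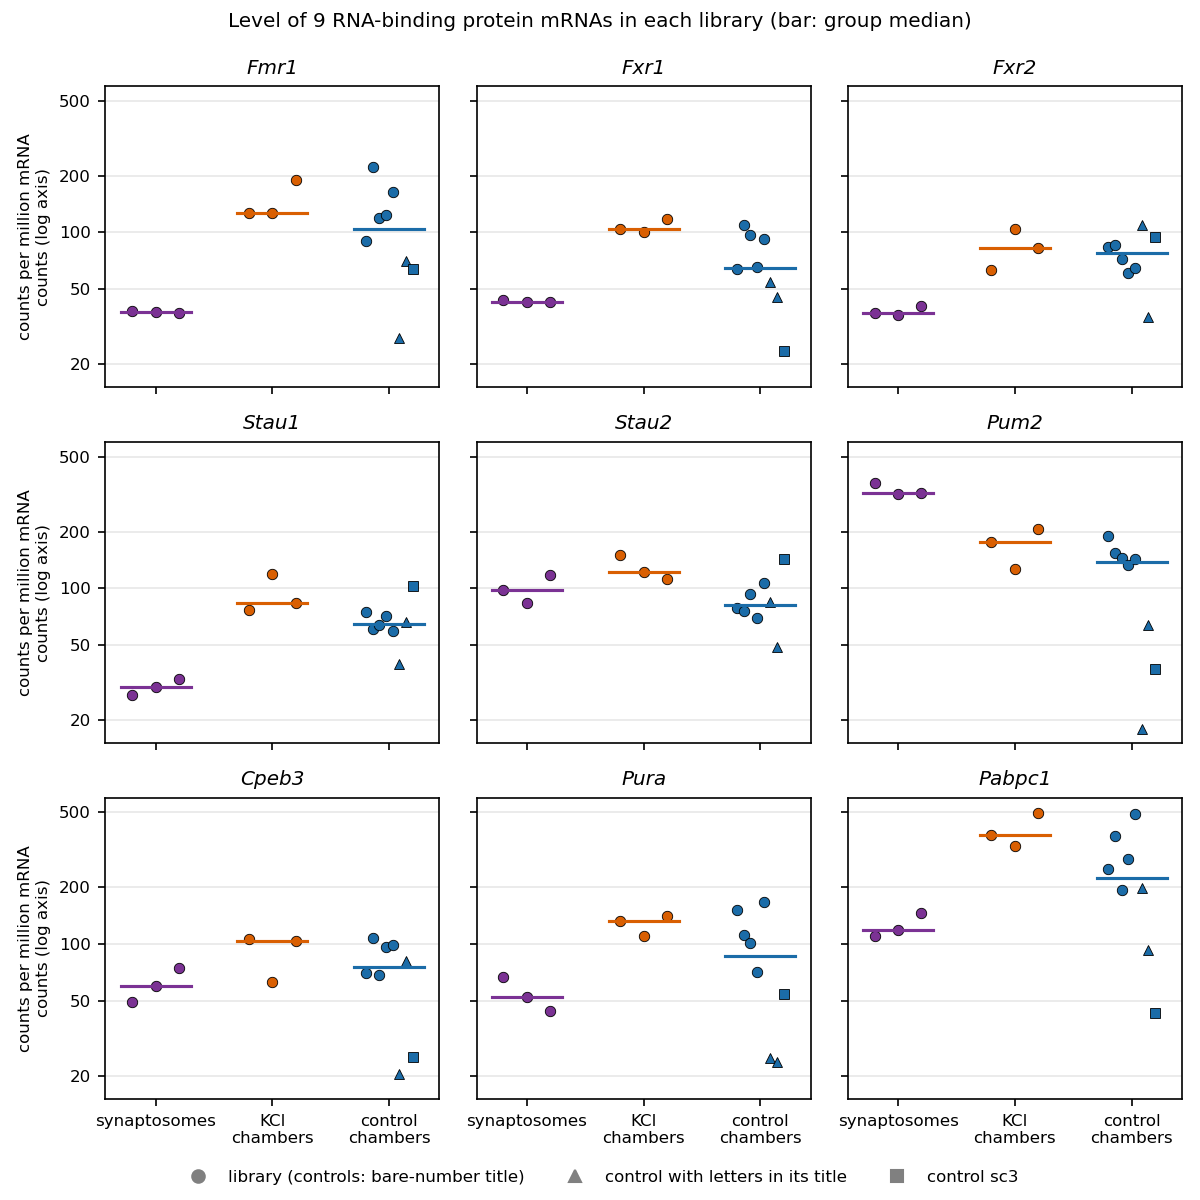
Each panel shows 1 mRNA, with the mRNA-scaled level (CPM over mRNA counts, log axis) of every library in synaptosomes (n = 3), KCl chambers (n = 3) and control chambers (n = 8), a bar at the group median, and triangles and a square for the lettered controls. Pum2 is the panel in which the synaptosome points (316 to 364) lie above every chamber point, and in Stau1 they (27.0 to 33.0) lie below every chamber point.

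The first comparison asked how the 9 mRNAs stand in synaptosomes relative to the cut-out channel of unstimulated chambers. Pum2 was higher in synaptosomes, no member was called lower, and the other 8 did not pass the test. The comparison was fitted with edgeR's quasi-likelihood test over 18412 mRNAs with TMM scaling, and a gene was called where the Benjamini-Hochberg adjusted p did not exceed 0.05 and the log2 fold change passed 1 in either direction. Of the 9 members, 1 was called higher, where 4.68% of all mRNAs tested were (861 of 18412) and 11.6% of the 3833 mRNAs with a chamber mean of at least 50 CPM were, and 0 of 9 were called lower, where 7.40% of all were. Tissue, age, strain, preparation and library kit all differ between these groups and cannot be told apart from the compartment. The methods name an RNA extraction kit for the chambers only, so extraction may differ too. In bulk RNA fewer neurites of a kind cannot be told apart from less RNA in each.

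Pum2, a Pumilio protein that represses target mRNAs in dendrites and neuronal progenitors, had an mRNA-scaled level of 364, 316 and 319 in the synaptosome pools, against a lowest of 17.9, a median of 138 and a highest of 189 in control chambers. The groups did not overlap. The 3 lettered controls were lowest, and the 5 bare-number ones lay between 132 and 189. The log2 fold change was 2.67 (SE 0.59, 95% interval 1.40 to 3.93, edgeR with Benjamini-Hochberg adjusted p = 0.0145). Over the 18 alternatives of this comparison the log2 fold change stayed between 1.58 and 4.11 and the adjusted p between 0.000115 and 0.0718. Leaving out any 1 of the 3 synaptosome pools ended the call, with edgeR and Benjamini-Hochberg adjusted p-values of 0.0718, 0.0568 and 0.0663 without pools 1, 2 and 3, while all 15 others kept it. Markers of cell types moved with this comparison, and not all in 1 direction. Called higher in synaptosomes were 6 of 7 microglial, 3 of 7 oligodendrocyte and 2 of 8 astrocyte markers. Their median log2 fold changes were 4.71, 2.37 and 0.82, with all members of the 3 lists positive. Of 8 neuronal markers 2 were called higher, with a median of 0.86 and 5 positive. The 4 endothelial markers tested had a median of -3.41, with 0 positive and 0 called. In CPM of the whole table the summed microglial level was 145 to 179 in synaptosomes against 5.61 to 266 in controls. Only 11.0% to 12.1% of synaptosome counts were mRNA, against 70.0% to 97.3% of control counts. These CPM therefore place synaptosomes lower against controls than the mRNA-scaled level would. The part of these cells in the Pum2 result was not tested. In the raw counts Pum2 had 647, 580 and 590 in the 3 pools, more than any other member.

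Among the staufens, Stau2, the neuron-enriched paralog that carries mRNAs into dendrites, had 97.8, 83.9 and 117 in the synaptosome pools, against 48.9, 81.4 and 142 as lowest, median and highest of the controls. The ranges overlapped, sc3 (142) being the one control above all pools. The log2 fold change of Stau2 was 1.15 (SE 0.50), with an adjusted p of 0.117 by edgeR with Benjamini-Hochberg correction. DESeq2 called it higher (adjusted p = 0.0207), in a fit that called 8.72% of all mRNAs higher, as did edgeR against bare-number controls alone (0.00291) and without sc3 (0.00630), all with Benjamini-Hochberg adjustment. Those 2 edgeR fits called 2381 of 16303 and 2197 of 18276 mRNAs higher. Of the 3833 mRNAs with a chamber mean of at least 50 CPM, they called 1045 and 1059 higher, and DESeq2 called 915. Stau1, the more widely expressed paralog, had 27.0, 30.0 and 33.0 in the pools against 39.5, 64.9 and 103 in the controls. Its ranges did not overlap, synaptosomes being lower, although the fitted log2 fold change was only -0.19 (SE 0.51) on the TMM scale. Over all 18412 mRNAs, 19.0% had a synaptosome range wholly below that of the controls and 2.85% wholly above, and among the members Stau1 was the 1 below and Pum2 the 1 above.

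In the FXR family, Fmr1, whose silencing causes fragile X syndrome in humans, had 38.2, 37.6 and 37.3 in the pools against 27.4, 105 and 222 in the controls. Fxr1 had 43.8, 42.5 and 42.7 against 23.3, 64.8 and 109, and Fxr2 had 37.1, 36.5 and 40.5 against 35.4, 78.2 and 110. For each of the 3 genes the synaptosome pools lay within the range of the controls and towards its lower end. Their log2 fold changes were -0.49 (SE 0.59) for Fmr1, 0.44 (SE 0.46) for Fxr1 and 0.02 (SE 0.49) for Fxr2, none past the threshold. The pools were nearly identical in counts, with 68, 69 and 69 counts of Fmr1 and 78, 78 and 79 of Fxr1, and the exact 95% Poisson interval for 68 counts, 52.8 to 86.2, is far wider than their differences.

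Cpeb3, a CPEB family member whose aggregation has been tied to lasting memory in mice, had 49.5, 59.9 and 74.6 in the pools, against 20.4, 75.7 and 107 in the controls. Pura had 66.9, 52.3 and 43.8 against 23.6, 86.1 and 166, and Pabpc1 had 111, 119 and 145 against 43.1, 224 and 488. All 3 overlapped with the controls. Their log2 fold changes were 0.91 (SE 0.50) for Cpeb3, 0.31 (SE 0.64) for Pura and 0.15 (SE 0.61) for Pabpc1. The median of the 9 was 0.31, beside 0.27 for the 3833 mRNAs with a chamber mean of at least 50 CPM and -0.99 for all mRNAs tested. Scaling by mRNA totals alone moved the median of all mRNAs to -2.10 and that of the members to -0.71. Under that scaling Fmr1 (-1.56) and Stau1 (-1.18) were called lower, as 33.2% of all mRNAs tested were. Fxr1, Fxr2, Cpeb3, Pura and Pabpc1, positive with TMM, were negative under it. Relative to the median of all mRNAs, Pum2 stood 3.66 higher with TMM and 3.68 higher with mRNA totals.

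**Figure D2:**
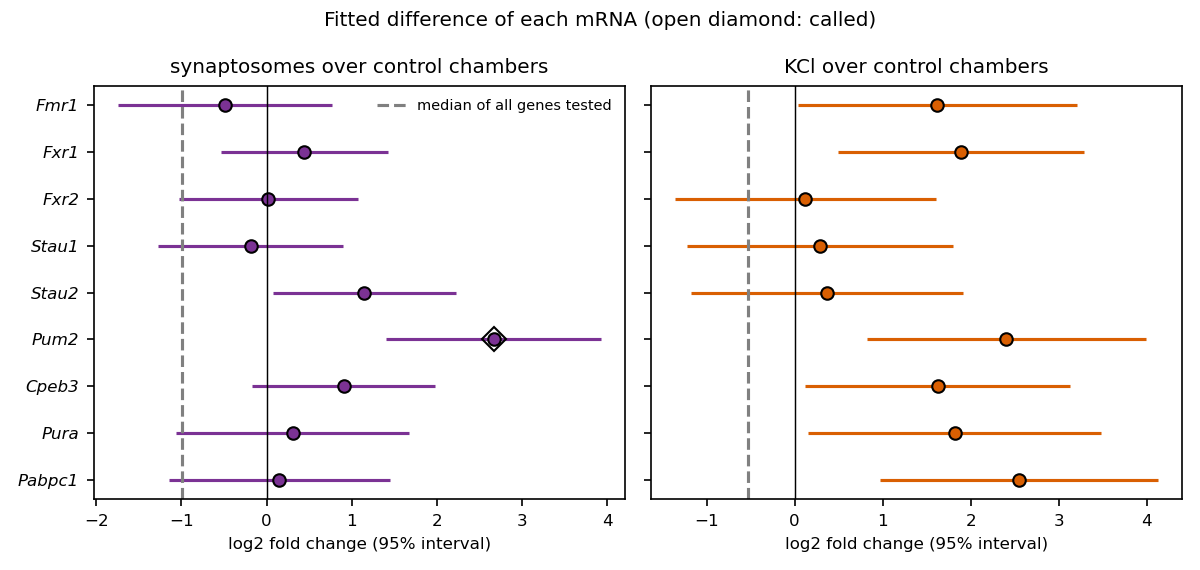
Log2 fold changes with 95% intervals of the 9 mRNAs, for synaptosomes over control chambers on the left and KCl over control chambers on the right, with the median of all genes tested as a dashed line (-0.99 and -0.53) and an open diamond around the called value. Pum2 in synaptosomes (2.67) is the one called value, and 6 of the 9 intervals on the right lie above 0 although none passes the adjusted threshold.

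The second comparison asked whether depolarisation with KCl for 2 h changed the 9 mRNAs in the neurite channel. With edgeR and a term for the kind of title, 0 of 9 members were called, as 1 of 28232 genes was called higher (0.00354%) and none lower. All 9 log2 fold changes were positive and 6 had an unadjusted p under 0.05, where 3.34% of all genes tested and 17.8% of the 3833 mRNAs with a chamber mean of at least 50 CPM had such a p and were higher. The median over the members was 1.62, beside 0.56 for those 3833 mRNAs and -0.53 for all genes. With this term the difference is that between the KCl libraries and the 3 lettered controls, the libraries that stand apart. Without the term the median of the members was 0.88, beside 0.47 for the 3833 mRNAs, and 0 members had an unadjusted p under 0.05 (1.13% of all genes and 5.74% of the 3833 mRNAs had one and were higher).

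Pabpc1 and Pum2 had the highest fitted differences of the 9. Pabpc1 had an mRNA-scaled level of 382 in KCL1, 332 in KCL1a and 499 in KCL4, against 43.1, 224 and 488 as lowest, median and highest of the controls. Pum2 had 176, 126 and 207 in the same KCl libraries, against 17.9, 138 and 189. For both, the lowest controls were lettered ones (sc3 for Pabpc1, Ctrl3 for Pum2), and the bare-number controls overlapped with the KCl libraries. The log2 fold changes were 2.55 (SE 0.76) for Pabpc1 and 2.40 (SE 0.77) for Pum2, with adjusted p-values of 0.543 and 0.584 (edgeR, Benjamini-Hochberg). DESeq2 with the same term called both higher (log2 fold changes 2.12 and 2.16, Benjamini-Hochberg adjusted p = 0.0102 and 0.0155), and in that fit 1.10% of all genes and 7.31% of the mRNAs with a chamber mean of at least 50 CPM were called higher. DESeq2 without the term called neither (Pabpc1 0.98, adjusted p = 0.678, and Pum2 0.82, adjusted p = 0.794, Benjamini-Hochberg). Against the 5 bare-number controls alone, edgeR gave 0.72 (SE 0.51) for Pabpc1 and 0.55 (SE 0.46) for Pum2.

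Fxr1 had 104, 101 and 118 in KCL1, KCL1a and KCL4, against 23.3, 64.8 and 109 in the controls, and Fmr1 had 127, 126 and 191 against 27.4, 105 and 222. For Fxr1, KCL4 lay above all 8 controls and the other KCl libraries above all but C2, while Fmr1 overlapped broadly. Their log2 fold changes were 1.89 (SE 0.67) and 1.62 (SE 0.77). Fxr2 had 63.4, 104 and 82.4 in the KCl libraries against 35.4, 78.2 and 110, and its log2 fold change of 0.12 (SE 0.72, 95% interval -1.36 to 1.61) excludes neither a 2-fold rise nor a 2-fold fall.

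Pura had 133, 110 and 141 in KCl chambers against 23.6, 86.1 and 166 in the controls, and Cpeb3 had 106, 62.9 and 104 against 20.4, 75.7 and 107. The lettered controls Ctrl3 and Ctrl4 were lowest for Pura, and Ctrl3 and sc3 for Cpeb3. The log2 fold changes were 1.82 (SE 0.80) and 1.62 (SE 0.73). Stau1 had 76.5, 120 and 83.4 in KCl chambers against 39.5, 64.9 and 103, and Stau2 had 150, 122 and 112 against 48.9, 81.4 and 142. For the staufens sc3 was the highest control and not the lowest, and their fitted values were 0.29 (SE 0.73) for Stau1 and 0.37 (SE 0.75) for Stau2. No member had KCl libraries wholly above the controls in CPM, as 0.365% of all genes tested did.

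**Figure D3:**
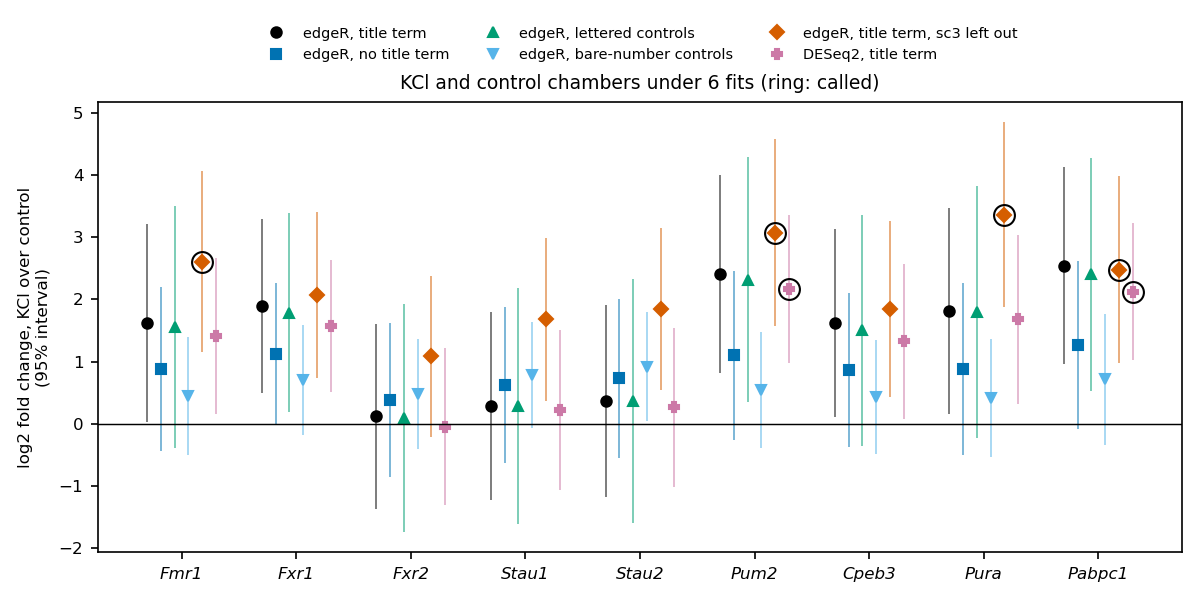
Log2 fold change of KCl over control chambers with its 95% interval for each mRNA under 6 fits, which differ in the controls used, in the term for the kind of title and in the tool, with a ring around called values. Calls appear with sc3 left out (Fmr1, Pum2, Pura and Pabpc1) and with DESeq2 (Pum2 and Pabpc1), and the fits on bare-number controls lie lowest for these 4 mRNAs.

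With edgeR and the term, the presence of sc3 decided whether any member was called. Without it, edgeR with the term called Fmr1 (2.61, SE 0.72), Pum2 (3.08, SE 0.74), Pura (3.36, SE 0.74) and Pabpc1 (2.48, SE 0.75) higher, with Benjamini-Hochberg adjusted p-values of 0.0317, 0.0155, 0.00956 and 0.0475. In the same fit 3.61% of all genes tested and 22.0% of the mRNAs with a chamber mean of at least 50 CPM were called higher, and the difference then rests on Ctrl3 and Ctrl4. Without both sc3 and the term, 0 members were called and the median was 1.03, beside 0.76 for the 3833 mRNAs. Leaving out KCL4 in place of sc3 gave 0 calls, a median of 1.14 and 7 of 9 positive values. Leaving out Ctrl4 gave 6 of 9 positive values, with Fxr2, Stau1 and Stau2 below 0, and leaving out Ctrl3 gave 7 of 9.

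The summed level of the 9 mRNAs was lowest in the lettered controls, whose shares of receptor genes lay at both ends of the range over chamber libraries. The summed mRNA-scaled level was 1316, 1203 and 1538 in KCL1, KCL1a and KCL4, against a lowest of 528, a median of 965 and a highest of 1383 in the controls. The 3 lettered controls had the lowest sums (577 in Ctrl3, 528 in Ctrl4, 586 in sc3), and C2 and C11 (1298 and 1383) were at the level of the KCl libraries. Receptor genes took 0.159%, 0.476% and 0.0615% of counts in KCL1, KCL1a and KCL4, against 1.01% in Ctrl3, 1.21% in Ctrl4 and 0.00646% in sc3. The summed level of 10 activity genes was 1161, 447 and 1085 CPM in KCL1, KCL1a and KCL4 against 207 to 845 CPM in the controls, so that KCL1a lay inside the control range. Mitochondrial genes took 14.9% to 21.4% of counts in the KCl libraries, against 0.861% to 2.65% in the 3 lettered controls and 3.50% to 18.1% in the bare-number ones. The part of these differences in the KCl result was not tested.

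**Figure D4:**
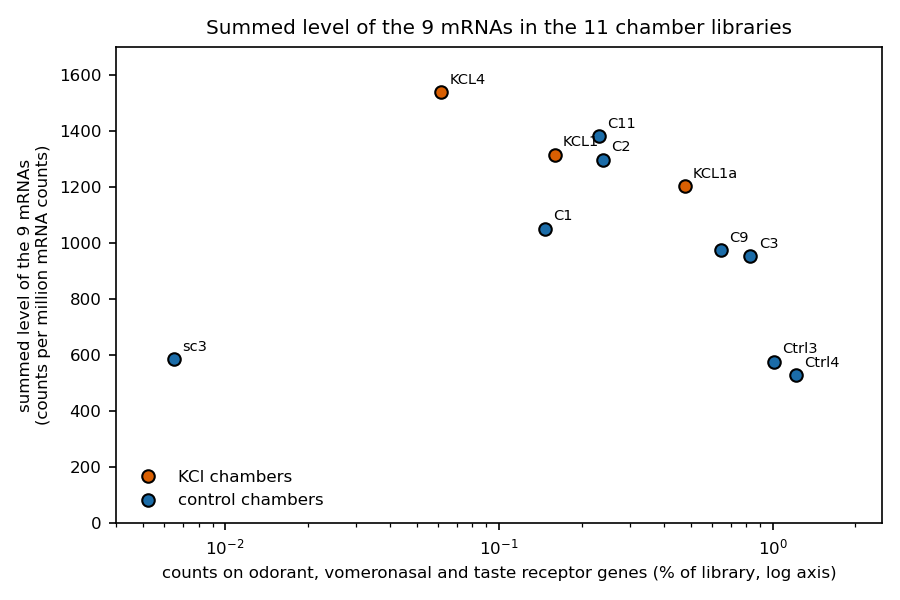
Summed mRNA-scaled level of the 9 mRNAs (vertical axis) against the share of counts on odorant, vomeronasal and taste receptor genes (horizontal log axis, percent of the library) in 3 KCl and 8 control chamber libraries. Ctrl3 and Ctrl4 lie at the lower right with 1.01% and 1.21%, sc3 at the lower left with 0.00646%, and the KCl libraries at 1203 to 1538.

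Shares within a family do not depend on library scaling and are given with no test. Per kilobase of exon, Stau2 made up 76.5%, 71.6% and 76.2% of the staufen level in synaptosome pools 1, 2 and 3. It made up 63.8%, 47.9% and 54.8% in KCL1, KCL1a and KCL4, and between 40.1% and 65.7% (median 54.1%) in the controls. The synaptosome pools thus lay above all 11 chamber libraries, also with no length term (73.7% to 78.4% of staufen counts, against 42.6% to 68.0% in the controls), while KCl and control chambers overlapped. Fmr1 made up 20.5%, 20.6% and 19.4% of the FXR family in the pools, 30.2%, 24.7% and 34.8% in KCl chambers and 7.56% to 38.6% (median 30.4%) in the controls. Fxr2 was the leading FXR paralog per kilobase of exon in all pools (47.3% to 50.2%) and was highest in Ctrl3 and sc3, whose Fmr1 shares were 7.56% and 20.1%. Without a length term Fxr1 led in the pools (35.4% to 36.8% of family counts), so the order within the FXR family depends on how length is counted.

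**Figure D5:**
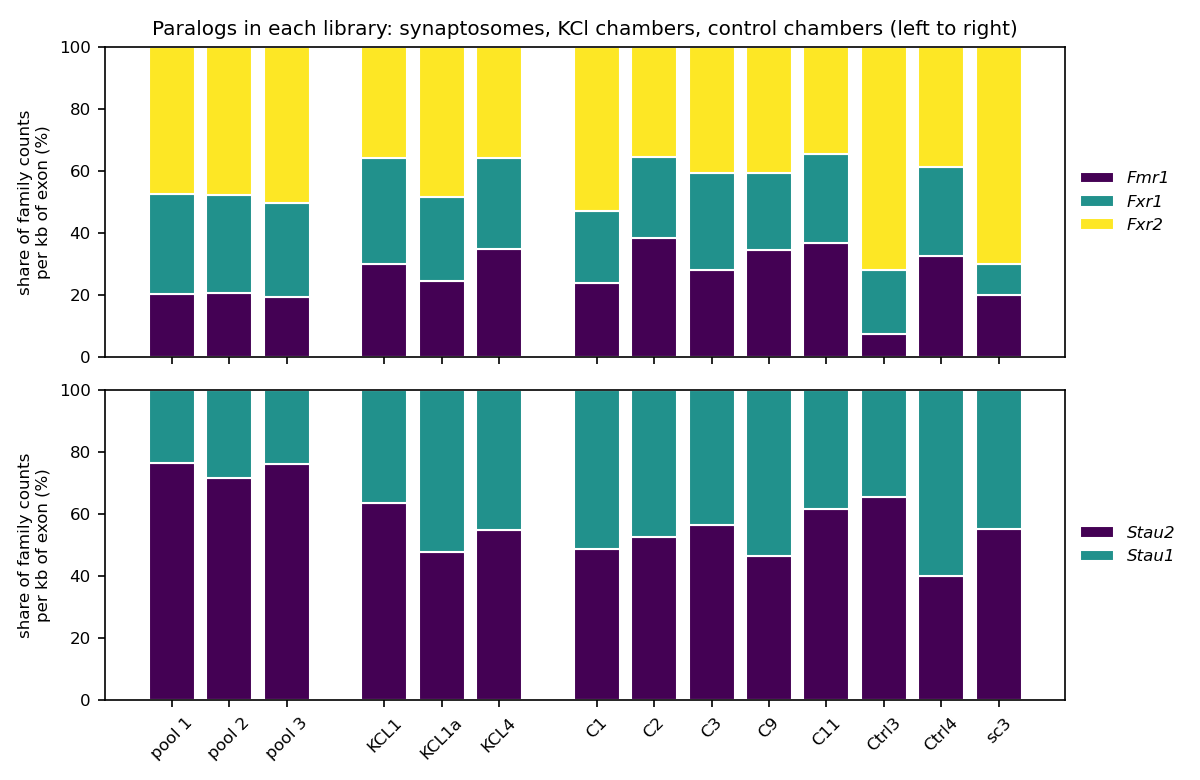
Stacked bars give the share of each paralog in its family's counts per kilobase of exon (percent), for the FXR family above and the staufens below, in each of 3 synaptosome pools, 3 KCl and 8 control chamber libraries. Stau2 fills 71.6% to 76.5% of the synaptosome bars and at most 65.7% of any chamber bar.

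Across the 11 chamber libraries some of the 9 mRNAs went together and others did not. Pearson's r of log2(CPM + 1) was 0.86 between Fmr1 and Pum2, 0.87 between Cpeb3 and Pum2 and 0.88 between Fxr1 and Pabpc1. It was -0.73 between Cpeb3 and Fxr2 and 0.55 between Stau1 and Stau2. These values describe 11 libraries that share their depth and composition differences, the lettered controls included, and carry no p. The mRNAs most alike, the 2 of highest r for each member among 3833 with a mean of at least 50 CPM, were Mtdh (0.92) and Hnrnpab (0.91) for Fmr1, Neurl4 (0.93) and Extl3 (0.93) for Fxr1, and Castor2 (0.93) and Reep1 (0.89) for Fxr2. They were H2afy (0.92) and Pik3r3 (0.91) for Stau1, Ube2k (0.91) and Tpi1 (0.90) for Stau2, and Paqr9 and Pdpk1 (both 0.96) for Pum2. For Cpeb3 they were Egln1 (0.97) and Dgkh (0.92), for Pura Gars and Sept5 (both 0.96), and for Pabpc1 Apba1 (0.98) and Ptms (0.97).

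Related genes were examined in lists beside the 9, by the same edgeR fits. The genes named from them as called in synaptosomes were chosen after their values were seen. Of 9 paralogs of the members, 0 were called between KCl and control chambers (7 positive, 4 higher at an unadjusted p under 0.05, median log2 fold change 0.96). As given above, 3.34% of all genes and 17.8% of mRNAs with a chamber mean of at least 50 CPM were higher at that p with the title term, and 1.13% and 5.74% without it. Without the term 0 paralogs were higher at that p and the median was 0.65. Between synaptosomes and control chambers 2 were called higher (Purb, log2 fold change 2.32, and Cpeb2, 1.34) and 2 lower (Pabpn1, -4.29, the nuclear poly(A)-binding protein, and Pabpc4, -2.70). The same fit called 4.68% of all mRNAs tested higher and 7.40% lower. The 2 most abundant paralogs in controls were Purb, the relative of Pura, and Cpeb4. Purb ranged from 815 to 914 in synaptosomes and from 530 to 789 in KCl chambers, against 48.9 to 642 in controls. Cpeb4 ranged from 106 to 128 in synaptosomes and from 174 to 323 in KCl chambers, against 71.8 to 288 in controls, and passed neither test.

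Of 33 granule and stress granule proteins, 1 was called higher (Cyfip1, a partner of FMRP, 1.98) and 5 lower in synaptosomes against control chambers (Igf2bp1, Igf2bp2, Mov10, Tia1 and Ybx1), with a median of -0.09. Of all mRNAs tested there, 4.68% were called higher and 7.40% lower. Ybx1, a cold-shock protein of untranslated mRNPs, had 24.7 to 51.4 in synaptosomes and 923 to 2249 in KCl chambers, against 86.0 to 677 in controls. Its synaptosome log2 fold change was -2.52 (SE 0.77) and its KCl value 3.16 (SE 0.87), for which edgeR gave a Benjamini-Hochberg adjusted p of 0.521. Cyfip2 passed neither test and had 587 to 767 in synaptosomes and 495 to 767 in KCl chambers, against 175 to 803 in controls. In KCl against control chambers 0 of the 33 were called, 7 were higher at an unadjusted p under 0.05, and their median was 1.03, while without the title term 3 were and the median was 0.50.

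Of 32 neuronal RNA-binding proteins, 1 was called higher (Qk, 2.51) and 2 lower (Hnrnpa1, -4.03, and Rbm3, -4.01) in synaptosomes against control chambers, with a median of 0.19, and 0 with KCl (8 higher at an unadjusted p under 0.05, median 0.94). Without the title term 2 of the 32 were higher at that p and the median was 0.69. Hnrnpu had 256 to 258 and Celf2 270 to 313 in synaptosomes, against 118 to 935 and 175 to 641 in controls, and neither was called. Of 15 exon junction complex and decapping genes, Dcp2 (1.69) was called higher and Upf3b (-2.22) lower in synaptosomes, with a median of -0.40, and 0 with KCl, also at an unadjusted p under 0.05 (median 0.19, or 0.39 without the title term). Cnot1 and Xrn1, the most abundant of this list in controls, passed neither test. Beside the synaptosome calls of these lists, 4.68% of all mRNAs tested were called higher and 7.40% lower.

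Of 24 mRNAs known as dendritic cargo, 6 were called higher in synaptosomes against control chambers, among them Camk2a (3.85) and Gria1 (3.79), and 1 lower (Rgs4, -3.04), with a median of 1.53. Of all mRNAs tested in that fit, 4.68% were called higher and 7.40% lower. Among mRNAs with a chamber mean of at least 50 CPM, 11.6% were called higher and the median was 0.27. With KCl 0 of the 24 were called, 13 were higher at an unadjusted p under 0.05, all 24 were positive and the median was 2.13, beside 0.56 for mRNAs with a chamber mean of at least 50 CPM. Without the title term 3 of the 24 were higher at that p, 23 were positive and the median was 1.04. Map1b, a cargo mRNA that FMRP binds, had 2121 to 2762 in synaptosomes and 3203 to 5973 in KCl chambers, against 400 to 3085 in controls, and was called in neither comparison.

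Positions and neighbours bear on what was counted. On GRCm38/mm10 (GENCODE M21) Fmr1 lies at chrX:68678541-68717963, Fxr1 at chr3:34019943-34070322, Fxr2 at chr11:69632990-69653297, Stau1 at chr2:166947549-166996299, Stau2 at chr1:16228674-16520112, Pum2 at chr12:8674134-8752581, Cpeb3 at chr19:37021291-37208601 and Pabpc1 at chr15:36595661-36609668. All are protein coding. Exons of Fxr1 overlap those of Dnajc19 on the other strand, which had 60 counts in synaptosomes, 1325 in KCl and 2646 in control chambers, and exons of Cpeb3 overlap those of A330032B11Rik on the other strand, which had 8, 91 and 44. Exons of Fmr1 overlap those of the small RNA model Gm27838 on the same strand, which had 0 counts in each group. No annotated gene overlaps Pum2, Stau1, Pura or Pabpc1. Reads that Pabpc1 may share with its paralogs and processed copies were not tested.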

How the data were processed

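Total RNA libraries of 3 synaptosome pools, 3 KCl chambers and 8 control chambers were analysed. Per the labels and methods, reads were aligned by the authors with STAR 2.5.2b (mm10), and featureCounts 1.5.1 gave the gene counts, with the strand setting not given in the sources used here. The deposited raw count per gene and library was used for tests. The deposited CPM, named TPM by the authors, equal counts scaled to each library's total, with no length term. The tables hold Ensembl identifiers, of which 48349 were matched to a symbol and 360 were not. mRNAs are the 22018 identifiers outside the lncRNA table (21626 protein coding in GENCODE M21).

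Tests used edgeR 4.0.16 in R 4.3.3 (quasi-likelihood, TMM, filterByExpr, Benjamini-Hochberg). Genes were called where the adjusted p did not exceed 0.05 and the log2 fold change passed 1 in either direction. The KCl fit held a term for the kind of title, and the synaptosome fit held mRNAs alone. Alternatives were DESeq2 1.42.0, other scalings, filters and controls, a factor of unwanted variation, a replicate block, KCL1 and KCL1a summed, and each library left out. Leaving out sc3 or KCL4 without the title term, and DESeq2 without it, were added after the data were seen. The KCl fit, and not the synaptosome fit, was run on simulated data with known fold changes. The simulated spread between libraries was far smaller than that of these libraries. That run therefore does not measure power or error here. Intervals are 95%. Depth was 722529 to 80883504 counts, and no 2 libraries agreed within sampling noise. The common coefficient of variation between libraries in edgeR was 1.23 in the KCl fit and 0.95 in the synaptosome fit. Precision depends on this spread as well as on depth.

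The naming rule took the 9 members, up to 4 genes of each further list called with KCl (if none, the 2 most abundant in controls) and the 2 mRNAs most like each member. Some genes of the further lists are not reported here. Members, lists and tests were chosen with earlier results of these data known.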

Additional observations from a re-analysis of the deposited data

Results flagged for a closer look

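In CPM, control library sc3 lay apart from the other 7 controls for both staufens. Stau1 was at 100.1 CPM in sc3, where the median of the 8 controls was 50.9 CPM, and Stau2 was at 138.2 CPM, where the median was 64.6 CPM. The gap from sc3 to the next control, divided by the range of the 8 values, was above the critical value of 0.526 for 8 libraries (0.638 for Stau1 and 0.632 for Stau2). On the mRNA-scaled level it was below that value for both (0.448 and 0.385). For 22 sets of control values (the CPM, the mRNA-scaled level and the family share of the members) 2 such libraries were found, both sc3, and about 1 set in 20 is found by chance.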

How the results depend on the processing

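Counts of members called changed as follows. For KCl against control chambers 0 members were called, 2 with DESeq2, and 0 to 4 with each library left out (4 without sc3). For synaptosomes against control chambers 1 was called, 2 with DESeq2, 2 with bare-number controls, 3 with library totals alone, and 0 to 2 with each library left out. Members at the detection cutoff numbered 5 in synaptosomes, 6 in KCl and 3 in control chambers on the mRNA-scaled level (19.4%, 10.8% and 9.76% of mRNAs with a count), against 0, 3 and 1 in CPM (1.54%, 7.41% and 6.54%), and 1 in KCl and 0 in control chambers where every library had to reach it (4.46% and 0.872%).

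Of the log2 fold changes of KCl over control chambers, Fxr2 (0.12) turned to -0.0032 with 10 counts required in every library of a group, -0.043 with DESeq2, -0.039 with relative log expression scaling and -0.25 with library totals alone. With each library left out, Fxr2 ranged from -0.34 to 1.08, Stau1 from -0.15 to 1.68 and Stau2 from -0.075 to 1.84. The other 6 members stayed positive in all 27 alternatives. Of the log2 fold changes of synaptosomes over control chambers, library totals alone turned Fxr1 to -0.69, Fxr2 to -1.01, Cpeb3 to -0.22, Pura to -0.71 and Pabpc1 to -0.95. Fmr1 turned to 0.48 and Fxr2 to -0.054 with lettered controls alone, Fxr2 to -0.048 with all genes of the tables, and Pura to -0.11 and Pabpc1 to -0.31 with bare-number controls. With each library left out, Fxr2 ranged from -0.11 to 0.25 and Stau1 from -0.31 to 0.14. The causes were not tested.

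Over all genes the KCl comparison called 1 higher and 0 lower, against 40 and 16 with every gene that had a count, 305 and 43 with DESeq2 (where 20664 genes had no adjusted p) and 1013 and 85 without sc3. The synaptosome comparison called 861 higher and 1362 lower, against 1605 and 5083 with DESeq2, 2381 and 5022 with bare-number controls, 353 and 6105 with library totals alone, and between 179 and 272 higher and 58 and 89 lower with a pool left out. With the replicate block by title number, 0 members were called and their median KCl log2 fold change was 1.96. KCL1 and KCL1a share title number 1, and the labels do not say whether they are separate samples. With their counts summed, 0 members were called and the median was 2.16, beside 1.02 for mRNAs with a chamber mean of at least 50 CPM. Same-numbered deviations correlated at 0.34 (KCL1 and C1), -0.37 (KCL1a and C1) and -0.47 (KCL4 and Ctrl4). Pairs with different numbers ranged from -0.41 (KCL4 and C3) to 0.42 (KCL1a and Ctrl4). These few values, taken around group means, cannot decide whether the numbers pair the libraries. Depth limits Ctrl4 most, with 722529 counts in all.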
